A study of Bos taurus with 6 samples.

Results

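The genes described here encode heat shock proteins, chaperonins and foldases of the endoplasmic reticulum (ER), the proteins that help other proteins reach and keep their shape. They are the 57 genes, of 9155 named genes on the array, whose symbol in the platform annotation belongs to the families HSPA, HSPB, HSPD, HSPE, HSPH, HSP90, DNAJA, DNAJB, DNAJC, CCT or PDIA or is CALR, CANX or HYOU1. They were read by 94 of the 24016 probe sets, and 21 of the genes had more than 1 probe set, in which case the brightest, by its mean log2 signal, stands for the gene. Of the 57 members, 26 were J proteins, 10 belonged to the HSP70 and HSP110 families (HSPA, HSPH1, HYOU1), 3 were HSP90s, 5 small heat shock proteins, 2 the mitochondrial chaperonin HSPD1 and its lid HSPE1, 6 subunits of the cytosolic chaperonin CCT, 2 the ER lectin chaperones CALR and CANX and 3 protein disulfide isomerases.

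The cells were bovine mesenchymal stem cells (MSCs) from bone marrow, held in agarose hydrogel in a chemically defined medium, with total RNA read on 1 Affymetrix bovine array per condition. A set of 3 conditions had no transforming growth factor beta 3 (TGF-beta3), at days 3, 21 and 42. Another 2 had TGF-beta3, the growth factor that drives MSCs towards cartilage cells, up to day 21 or day 42, and the last had it for 42 days with dynamic compression over the final 21. The sources used here do not say whether the constructs came from 1 animal or several.

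Chaperones of the HSP70 family bind exposed stretches of unfolded proteins in cycles driven by ATP, which J proteins start and nucleotide exchange factors such as the HSP110 proteins end. HSP90 matures signalling proteins and receptors, CCT folds actin and tubulin in a closed chamber, and small heat shock proteins hold denatured proteins so that they do not aggregate. In the ER, HSPA5 (BiP), HSP90B1, the lectins calnexin and calreticulin and the disulfide isomerases fold secreted proteins, which in cartilage cells are largely collagens and proteoglycans. The cytosolic set is known to be induced by heat and other stress through the factor HSF1, and the ER set by the unfolded protein response.

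The scale of every value below is the authors' signal intensity, and a floor of 15.1 marks dim values. The arrays had median signals between 22.3 and 34.9. The ratio of 3' to 5' signal, a gauge of RNA integrity, lay between 1.51 and 2.27 for GAPDH and between 4.86 and 7.52 for cyclophilin. Its part in the differences below was not tested. The hybridisation spikes, foreign transcripts added in fixed amounts, had median signals between 2618 and 3727 on 4 arrays but 7304 on the unloaded and 5823 on the compressed day 42 array with TGF-beta3. Cartilage markers followed the labels: the 5 measured summed to signals of 482 to 4335 without TGF-beta3 and of 22178 to 35488 with it. All 6 stromal markers were above the floor on every array except THY1 on the compressed one. Markers of other cells differed as well. The summed signal of 5 adipocyte markers was between 5057 and 15415 without TGF-beta3 and between 461 and 921 with it, and that of 5 macrophage and blood cell markers between 176 and 549 without and between 30.4 and 76.3 with it. The summed signal of 4 smooth muscle markers went the other way, between 235 and 785 without TGF-beta3 and between 1294 and 5139 with it. Of these, MYH11 was under the floor on every array. In bulk RNA, the number of cells of a type and the RNA per cell cannot be told apart.

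Most of these genes were bright. The median of the members' mean signals was 537, against 71.2 over all named genes, and 49 of 57 members (86.0%) were above the floor on all 6 arrays, against 60.1% of all genes. HSPA8, the constitutive cytosolic HSP70, had signals of 3874 at day 3, 3564 and 3359 without TGF-beta3 at days 21 and 42, 4439 and 3756 with it, and 3631 with compression. Its highest and lowest arrays thus differed by only log2 0.40. HSP90AA1 spanned log2 0.30, the narrowest range among the members with any value above the floor, from 2821 without TGF-beta3 at day 21 to 3468 with it. Calnexin (CANX) spanned log2 0.50 and the ER J protein DNAJC3 0.35. Among the 17 members with a mean signal of at least 1000, 15 (88.2%) varied by less than log2 1 over the 6 arrays, against 46.4% of the 821 genes that bright. Among the 16 members with a mean signal under 100, 4 (25%) did, against 41.8% of 5140 genes, and 3 of the 4 (HSPB3, DNAJB5 and DNAJC22) had most values set to the floor. The J proteins held 12 of these dim genes. The difference between these shares was not tested. HSPB3, a small heat shock protein of muscle, was under the floor on every array and has no comparison.

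**Figure D1:**
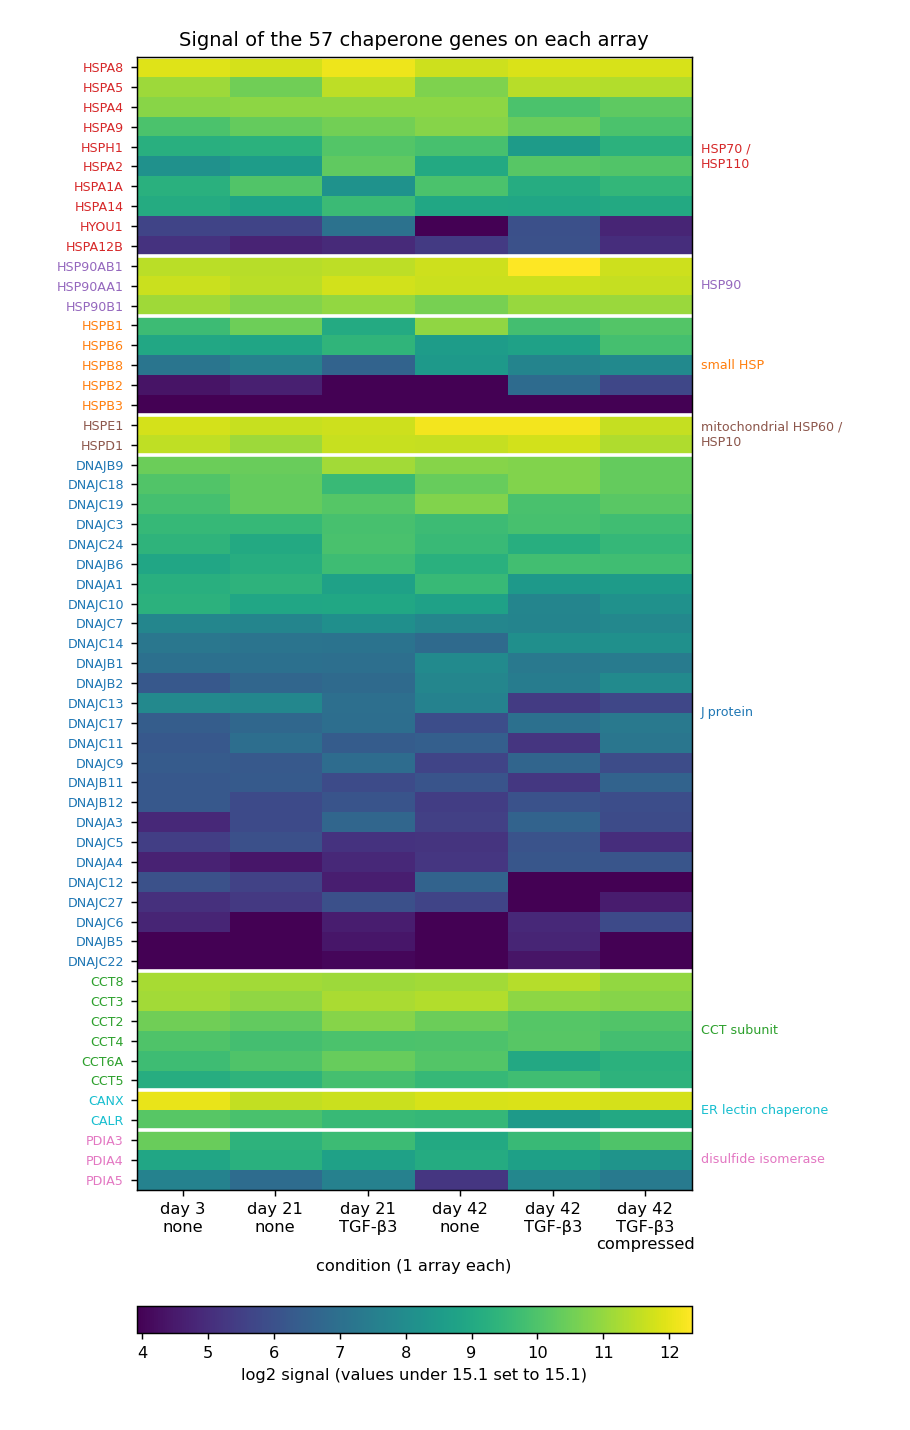
Log2 signal of the brightest probe set of each of the 57 genes (rows, coloured and grouped by role, brightest first) on the 6 arrays (columns). HSPA8, HSP90AA1, HSPE1, HSPD1, CCT8 and CANX keep nearly 1 colour across the conditions, while HYOU1, HSPB2, DNAJC12 and DNAJC13 change by over log2 2.

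TGF-beta3 was tested over days 21 and 42 with limma on 4 arrays, with day as a term. Of 56 members tested, HSPA2 rose and HSPA1A and HSPB1 fell. That is 1.79% and 3.57% of the members, where 7.11% of 6835 named genes rose and 7.70% fell, so the members' counts lay below the background in both directions. At an unadjusted limma p under 0.05, 4 members (7.14%) were higher and 5 (8.93%) lower, where 15% and 13.3% of all genes were. By size alone, with a log2 difference of at least 1 counted as higher or lower, 2 of 56 members were higher and 3 lower at day 21, where 14.3% and 14.0% of 6938 genes were. At day 42 the members' counts were 8 and 9 of 56, with 25.5% of 7566 genes higher and 15.7% lower. Median centring turned the day 42 split of the members to 3 higher and 18 lower, and centring on the spikes to 3 and 35. Both scalings shift every gene of an array alike. The shares of all genes under them were not counted, so these splits are not results about the members. The spikes of this pair of arrays differed by log2 1.32, and those of the day 21 pair by 0.30. Centred on them, 24 of the 29 members with a positive day 42 difference turned negative, HSPA2 (-0.21) and HSPA5 (-0.59) among them, and 12 of 39 at day 21. The median member difference was 0.22 at day 21 and 0.10 at day 42, beside 0.09 and 0.22 over all genes.

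**Figure D2:**
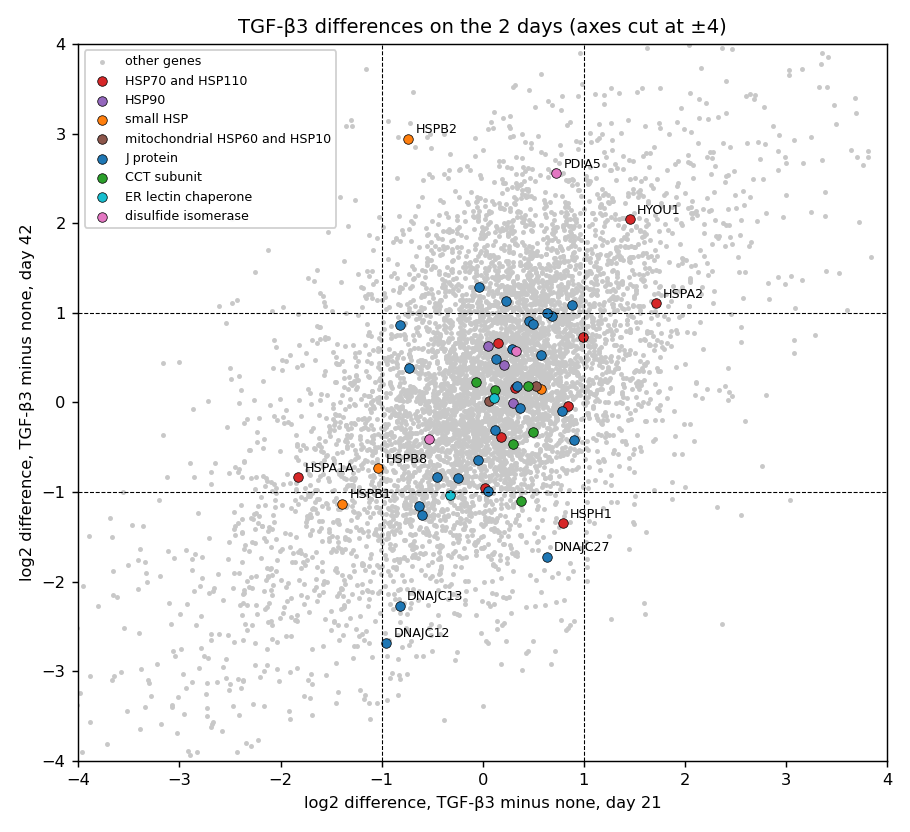
Each point is a gene with its log2 difference between TGF-beta3 and none at day 21 (horizontal) and day 42 (vertical), 1 array on each side, with the members coloured by role, other genes in grey, dashed lines at differences of 1 and -1, and genes past 4 in either direction outside the axes. Most members lie inside the central square, HSPA2 and HYOU1 lie past 1 on both days at the upper right, HSPB1 lies past -1 on both days at the lower left, and HSPB2, HSPH1 and DNAJC27 lie on opposite sides on the 2 days.

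The stress-inducible HSP70 gene HSPA1A fell. Its signal was 621 at day 3, 1059 and 1000.3 without TGF-beta3 at days 21 and 42, 298 and 560.0 with it, and 715 under compression. Both arrays with TGF-beta3 lay below both day-matched arrays without it. The mean log2 difference was -1.33 ± 0.35 (SE; adjusted p = 0.00597 by limma). It was 3.56-fold lower at day 21 and 1.79-fold at day 42. The annotation gave HSPA1A 6 probe sets, and they disagreed. A pair of them were lower on both days like the brightest, by log2 -1.80 and -2.01 and by -1.31 and -1.49. Another differed by only 0.37 and -0.10, a dim one was higher by 1.78 and 1.31, and the last was under the floor on these 4 arrays. HSPA1A has a near-identical gene copy, so which transcript each probe set read is uncertain. With the median of its probe sets the call was lost (mean log2 -0.74, adjusted p = 0.171 by limma).

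HSPA2, an HSP70 best known from spermatogenesis, was the 1 member that rose. It read 291 at day 3, 379 and 522 without TGF-beta3 at days 21 and 42, and 1243, 1125 and, with compression, 1052 with it. All 3 arrays with TGF-beta3 lay above all 3 without it. Its mean log2 difference was 1.41 ± 0.34 (SE; adjusted p = 0.00277 by limma). It was 3.27-fold higher at day 21 and 2.15-fold at day 42, on a single probe set. With the arrays centred on the spikes, the day 42 difference turned from log2 1.11 to -0.21 and the mean from 1.41 to 0.60. HSPA1A and HSPA2 thus went opposite ways in the same family.

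HSPB1 (HSP27), a small heat shock protein that also caps actin filaments, was the other member that fell. Without TGF-beta3 its signal was 825 at day 3, 1416 at day 21 and 1979.5 at day 42, and it was 541 and 905 with TGF-beta3 and 1085 with compression. The 2 unloaded arrays with TGF-beta3 lay below both day-matched arrays without it. The mean log2 difference was -1.26 ± 0.34 (SE; adjusted p = 0.00676 by limma), and its second probe set gave -1.89 and -1.52 on the 2 days against -1.39 and -1.13 on the first. All 3 calls were lost with the arrays centred on the spikes and when the variance trend or the day term was dropped. They were also lost in each fit that left out an array without TGF-beta3. Those fits had no day term either, so the part of the left-out array cannot be told apart from that of the term. HSPA1A and HSPA2 were also lost under median centring (mean log2 -1.58 and 1.16, adjusted p = 0.058 and 0.20 by limma). The differences of the 2 genes that fell were larger where the spikes set the scale, at -2.14 for HSPA1A and -2.07 for HSPB1, so those lost calls are not smaller differences. Over all alternatives the adjusted p by limma lay between 1.26e-06 and 0.318 for HSPA1A, between 0.000139 and 0.694 for HSPA2 and between 6.09e-06 and 0.559 for HSPB1, while the direction of each mean was kept.

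**Figure D3:**
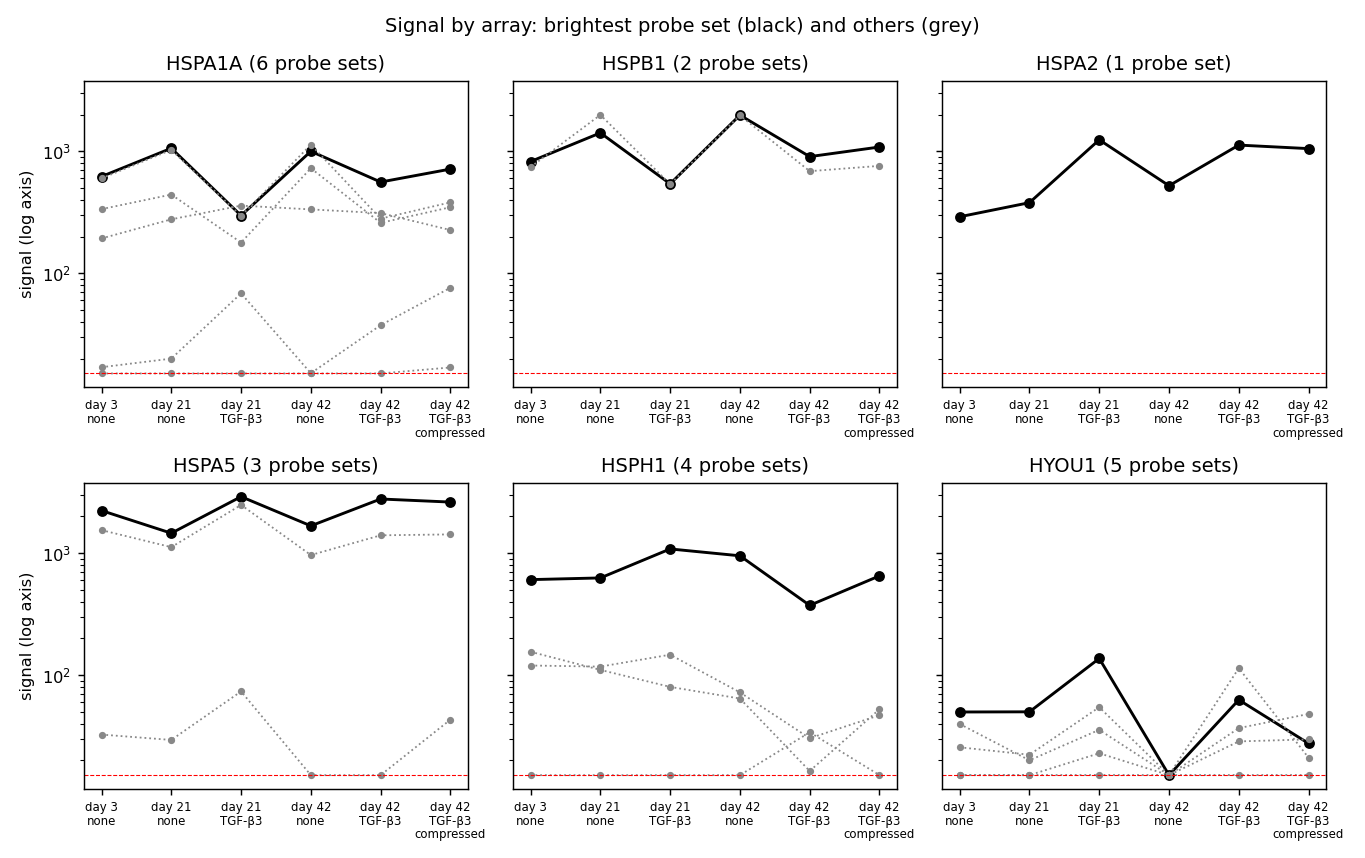
Signal on a log axis of every probe set of 6 members on the 6 arrays, 1 point per array, with the brightest probe set in black, the others in grey and the floor of 15.1 as a dashed line (values under it are drawn on it). HSPB1's pair of probe sets move together, HSPA1A has probe sets that dip with TGF-beta3 and others that do not, and HSPA2 is above 1000 on the 3 arrays with TGF-beta3 only.

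The other small heat shock proteins had no shared direction. HSPB8, which works with BAG3 to send misfolded proteins to autophagy, had a pattern like that of HSPB1 at a lower level: 146 at day 3, 198 and 349 without TGF-beta3, 96.4 and 209 with it, and 241 with compression. It did not pass the test (mean log2 -0.89 ± 0.46, SE; adjusted p = 0.215 by limma). HSPB6 (HSP20), known from smooth muscle relaxation, had signals of 463 and 691 at day 21 and 381 and 422 at day 42, without and with TGF-beta3. HSPB2, a muscle protein, read 25.2 without TGF-beta3 at day 21 and was under the floor with it. At day 42 it was under the floor without TGF-beta3 and 116 with it, at least 7.69-fold higher. Crystallin alpha B (CRYAB), a small heat shock protein whose symbol lies outside the family names used here, was among the neighbouring genes listed for comparison and fell by far more than HSPB1. Its signal was 869.9 at day 3, 1324 and 2137 without TGF-beta3, 131 and 202 with it, and 276 with compression. The mean log2 difference was -3.37 ± 0.35 (SE; adjusted p = 1.45e-10 by limma), and CRYAB was called in all 13 alternative fits, with adjusted p between 1.83e-27 and 0.0117. The adipocyte and macrophage markers given above were lower on the same arrays as HSPA1A, HSPB1 and CRYAB, and their part in these falls was not tested.

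The remaining HSP70 and HSP110 genes did not pass the test. HSPA5 (BiP), the ER HSP70, read 2229 at day 3, 1454 and 1670.0 without TGF-beta3 and 2898, 2773 and 2616 with it, the last with compression. All 3 arrays with TGF-beta3 lay above all 3 without it, and its second bright probe set differed by log2 1.15 and 0.54 on the 2 days, the brightest by 0.995 and 0.73. The mean log2 difference was 0.86 ± 0.35 (SE; adjusted p = 0.0929 by limma), and it passed in 5 of 13 alternative fits, with adjusted p between 0.0281 and 0.971. With the spikes its mean difference was 0.056. HYOU1, an ER member of the HSP110 family that serves HSPA5 as exchange factor, was dim: 49.7 at day 3, 49.9 and 3.32 (under the floor) without TGF-beta3, 137 and 62.6 with it and 27.5 with compression. With TGF-beta3 it was 2.74-fold higher on day 21, and on day 42 at least 4.13-fold (mean log2 1.75 ± 0.72, SE, with a value set to the floor; adjusted p = 0.102 by limma). Of its 4 other probe sets, 3 were higher on both days as well, by log2 0.59 to 2.91, some of them bounds, and 1 was under the floor throughout.

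HSPH1 (HSP105), the inducible cytosolic HSP110, was 1 of 4 members of 56 (7.14%) that differed by at least 1.5-fold in opposite directions on the 2 days, where 4.49% of 6748 genes did. It was 625 without and 1080.1 with TGF-beta3 at day 21, but 949 without and 372 with it at day 42. Its relative HSPA4 read 1906 and 1933 at day 21 and 1939 and 999.9 at day 42, a log2 difference of -0.96 on the later day. HSPA14, which sits with a J protein at the ribosome, read 445 and 799.6 at day 21 and 494 and 482 at day 42, and HSPA12B, a distant relative known from endothelium, was between 27.2 and 64.1 over all arrays. The mitochondrial HSP70, HSPA9, was between 983 with compression and 1800.2 without TGF-beta3 at day 42. At day 21, 9 of these 10 genes had a positive difference, HSPA1A being the exception, and 5 of 10 at day 42, where 54.4% and 59.0% of all genes had one.

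The 3 HSP90 genes and the mitochondrial chaperonin spanned log2 0.30 to 0.90 over the 6 arrays, and none of the 5 passed at an adjusted or an unadjusted limma p under 0.05. The ER form HSP90B1 read 1753 and 2023 without and with TGF-beta3 at day 21 and 1579.8 and 2108 at day 42. HSP90AB1, the constitutive cytosolic form, was between 2775 and 3347 on 5 arrays and 5183 on the unloaded day 42 array with TGF-beta3, the array with the brightest spikes. HSPD1 (HSP60), the folding chamber of mitochondria, lay between 2218 and 3507, and its lid HSPE1 (HSP10) between 3089.7 and 4714.

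Of the 6 measured subunits of CCT, 5 varied by less than log2 1 over the arrays, and none of the 6 passed at an adjusted or an unadjusted limma p under 0.05. CCT2 had signals of 1461 at day 3, 1279 and 1399 without TGF-beta3, 1808 and 1114 with it and 1057 with compression. Over the 6 arrays CCT4 spanned log2 0.33, CCT8 0.43, CCT3 0.56 and CCT5 0.70. CCT6A stood apart from the other subunits: it read 1027 and 1332 without and with TGF-beta3 at day 21, 1096 without it at day 42, but 509.6 with it and 633 with compression. At day 42 the RNA difference was -1.11 for CCT6A beside 0.23 for CCT8 on the same pair of arrays, each on a single probe set.

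J proteins were the largest group, with levels from under the floor to 2331. None of the 26 passed the adjusted test, and at an unadjusted limma p under 0.05, 3 (11.5%) were lower and none higher, where 13.3% and 15% of all genes were. DNAJC13, which acts in endosome sorting, read 236 at day 3, 223 and 201 without TGF-beta3, 126 and 41.7 with it and 52.2 with compression. All 3 arrays with TGF-beta3 lay below all 3 without it (mean log2 -1.55 ± 0.57, SE; adjusted p = 0.0611 by limma). DNAJC12, a partner of the aromatic amino acid hydroxylases, read 47.7 without and 24.6 with TGF-beta3 at day 21, and 97.3 without and a value under the floor with it at day 42 (mean log2 -1.82 ± 0.70, SE, with a value set to the floor; adjusted p = 0.0746 by limma). DNAJA1, a main cytosolic partner of HSPA8, went from 655 to 424 and from 769.6 to 346 (mean log2 -0.89 ± 0.36, SE; adjusted p = 0.0912 by limma). All arrays with TGF-beta3 lay below those without it for DNAJA1 and DNAJC12 too. Among the alternative fits DNAJC12 passed in 5 of 12, DNAJC13 in 3 of 13 and DNAJA1 in 1 of 13.

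Other J proteins past the size rule at day 42 were DNAJC14, 2.44-fold higher, DNAJC17, a splicing-linked protein, 2.19-fold higher, the mitochondrial DNAJA3, 2.12-fold higher, and the histone-binding DNAJC9, at 101 against 50.6. The second DNAJC14 probe set differed by log2 0.88 at day 21 and -0.18 at day 42, against -0.03 and 1.29 on the first. DNAJC27 was at least 3.30-fold lower and DNAJC11, a protein of the mitochondrial outer membrane, 2.39-fold lower. DNAJB1, the main heat-inducible J protein, read 131 at day 3, 132 and 248 without TGF-beta3, 128 and 159 with it and 171 with compression. Its second probe set differed by log2 0.48 and 0.30 with TGF-beta3 where the first gave -0.04 and -0.64, so the pair do not settle a direction. DNAJB6, which blocks aggregation, was 1.49-fold and 1.44-fold higher on the 2 days, and DNAJC24, needed for the diphthamide modification, 1.86-fold higher and 1.33-fold lower. DNAJC18, an ER membrane J protein, was 1.66-fold lower and 1.31-fold higher. DNAJC19, of the mitochondrial import motor, was 1.18-fold and 1.79-fold lower. DNAJC7, which links HSP70 to HSP90, differed by log2 0.37 and -0.07, but by -0.63 and 0.93 on its second probe set, and DNAJB2 by 0.12 and -0.31. The dim DNAJA4, DNAJB12 and DNAJC6, the last an uncoating factor of clathrin vesicles, had positive differences of log2 0.29 to 0.96 on both days, those of DNAJC6 being bounds. DNAJB5 and DNAJC22 were above the floor only on the 2 unloaded arrays with TGF-beta3, at no more than 27.9, and the vesicle protein DNAJC5 differed by -0.82 and 0.86.

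Among the ER foldases, calreticulin (CALR), the soluble lectin chaperone, and calnexin, its membrane-bound relative, did not run together. CALR read 1142 at day 3, 964 and 739.8 without TGF-beta3, 769 and 362 with it and 510.3 with compression (mean log2 -0.68 ± 0.35, SE; adjusted p = 0.207 by limma). It was 2.04-fold lower with TGF-beta3 at day 42, where CANX differed by log2 0.05. PDIA3 (ERp57), the disulfide isomerase that works with both lectins, read 1354 at day 3, 652 and 525 without TGF-beta3, 818 and 783 with it and 1032 with compression. PDIA4 (ERp72) was 1.45-fold and 1.33-fold lower on the 2 days, while its other 2, dimmer probe sets were higher by log2 0.10 to 0.71. PDIA5 was 118 without and 195 with TGF-beta3 at day 21, and 38.5 and 227 at day 42. It did not pass the test (mean log2 1.64 ± 0.58, SE; adjusted p = 0.0511 by limma), and it passed in 3 of 12 alternative fits. Its other probe sets were under the floor on every array. PDIA6 had no named probe set here.

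The ER J proteins were mixed as well. DNAJB9 (ERdj4) was 1.73-fold higher at day 21 and differed by log2 -0.09 at day 42, DNAJC10 (ERdj5), which reduces disulfide bonds, differed by 0.06 and -0.99, and DNAJB11 (ERdj3) by -0.46 and -0.83. A grouping of 12 ER members was made after the values were seen. None of the 12 passed the adjusted test and 3 (25%) were higher at an unadjusted limma p under 0.05 (HSPA5, HYOU1 and PDIA5), beside 15% of all genes. The grouping is not complete, since it left out the ER membrane J protein DNAJC18 (mean log2 -0.17). None of the 26 J proteins was higher at that threshold, so a wider grouping with more of them would have a smaller share. The median limma difference of the 12 was log2 0.29, beside 0.13 over all 6835 genes.

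Other genes of ER folding and of the unfolded protein response, from a list of 44 symbols of which 34 were on the array, were fitted alongside. The list was made with earlier results of these data known, so its shares are not an independent test. Of 31 tested, 9 rose and none fell, where 7.11% and 7.70% of all genes did, at a median log2 difference of 0.78 against 0.13. At an unadjusted limma p under 0.05, 14 (45.2%) were higher and none lower, beside 15% and 13.3% of all genes. The founding disulfide isomerase P4HB, also a subunit of collagen prolyl hydroxylase, read 680.4 and 1739 without and with TGF-beta3 at day 21 and 643 and 2151 at day 42 (mean log2 1.55 ± 0.34, SE; adjusted p = 0.000725 by limma). ERO1A, which reoxidises disulfide isomerases and is induced by low oxygen, went from 67.7 to 314 and from 64.1 to 313. With the median of its probe sets the mean log2 difference of ERO1A was 1.13 and its call was lost (adjusted p = 0.214 by limma). The collagen chaperone SERPINH1 (HSP47) went from 1685 to 4553 and from 1565 to 6562, and the prolyl isomerase FKBP11 from 269.6 to 1532 and from 262 to 1178. ERP29, the isomerases FKBP7 and FKBP14, the translocon subunit SEC61B and the stress transcription factor ATF4 were the other genes that rose. ATF4 was 2.26-fold and 2.56-fold higher, while its target DDIT3 (CHOP), which marks severe ER stress, was 1.48-fold and 1.32-fold higher and did not pass (adjusted p = 0.43 by limma). XBP1 had no named probe set here. The count of 9 was 3 under median centring, 0 with the spikes, 4 when day was not a term and 2 when the variance had no trend. Leaving out either array that lacked TGF-beta3 lowered the count, in fits that had no day term either. Whether the list differs from the ER members was not tested.

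**Figure D4:**
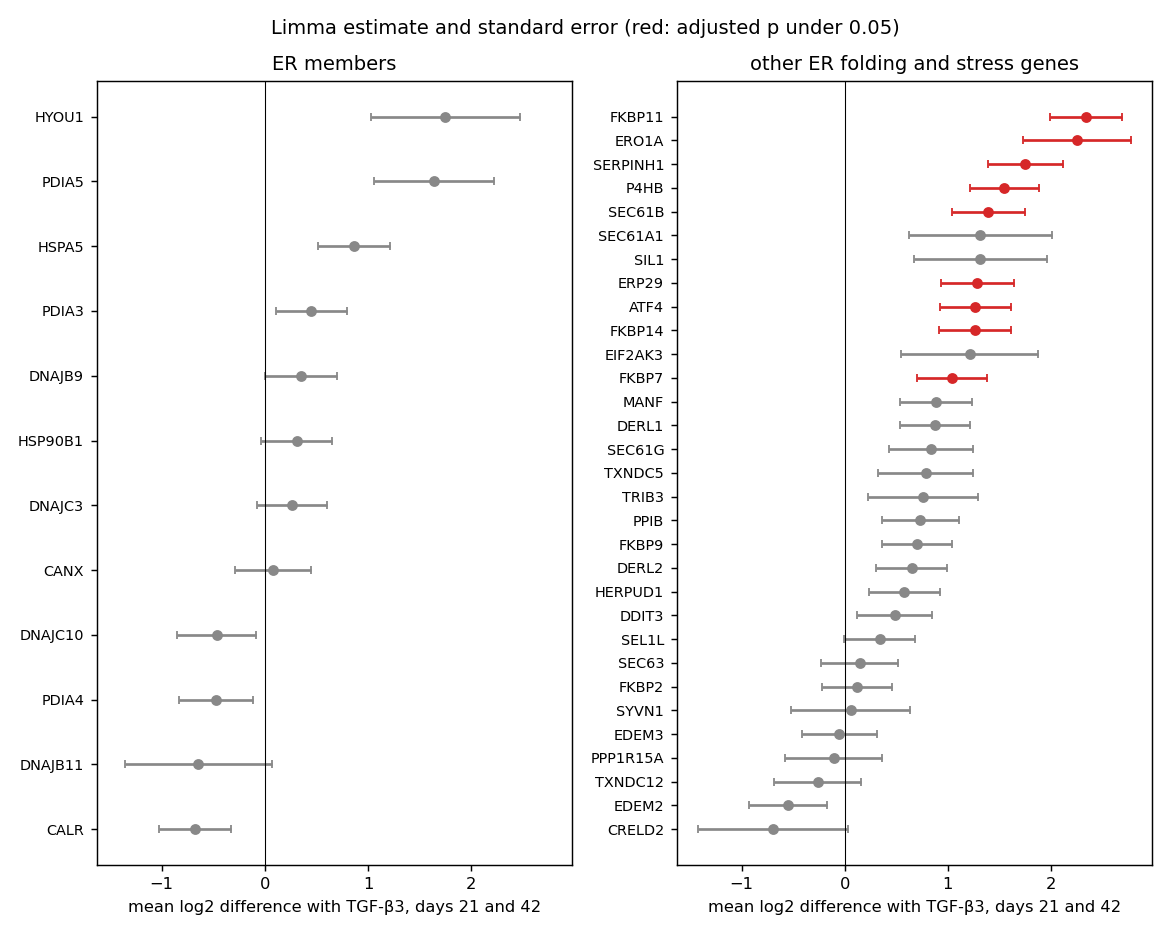
Mean log2 difference with TGF-beta3 over days 21 and 42 (horizontal axis) with its standard error, from limma on 4 arrays. The 12 members grouped as ER are on the left and the 31 other ER folding and stress genes tested on the right. Red marks an adjusted p under 0.05. No ER member is red, with HYOU1, PDIA5 and HSPA5 at the top, whereas 9 genes on the right are, led by FKBP11 at 2.34 and ERO1A at 2.25.

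Co-chaperones and heat shock factors, which regulate the members' activity or their transcription, were taken from a list of 28 symbols. Of the 27 genes tested, 1 rose and 1 fell, the latter being CRYAB. The heat shock factor HSF1 rose: without TGF-beta3 it read 11.5 (under the floor) and 28.1 at days 21 and 42, and with it 81.7 and 111, with a mean log2 difference of 2.21 ± 0.71 (SE, with a value set to the floor; adjusted p = 0.0297 by limma). It was dim on all arrays, and it was called in 7 of 12 alternatives, with adjusted p between 0.00435 and 0.646 by limma. It was lost with the floor at the 25th percentile, with the spikes and without the day term. It was also lost without either array that lacked TGF-beta3, in fits that had no day term either. HSPA1A, HSPB1, HSPH1, DNAJB1 and HSP90AA1 are among the cytosolic members that HSF1 is known to drive. Their day 21 differences were log2 -1.83, -1.39, 0.79, -0.04 and 0.30, with mixed signs. At day 42 their differences were -0.84, -1.13, -1.35, -0.64 and -0.01, all negative, but only on the brightest probe sets. Of the others, 3 of 4 for HSPA1A, 2 of 3 for HSPH1 and the 1 for HSPB1 were negative too. The highest for HSPA1A was 1.31 and for HSPH1 1.16, a bound. The second probe sets of DNAJB1 and HSP90AA1 gave 0.30 and 0.16. These genes are only a part of the cytosolic set, whose other members had both signs at day 42. HSP90AB1 differed by 0.63 and HSPA8 by 0.16, but DNAJA1 by -1.15 and HSPA4 by -0.96. Any link to HSF1 was not tested.

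Compression was applied for the last 21 days with TGF-beta3 and had 1 array on each side, so no test was possible. The 3' to 5' ratio of cyclophilin was 4.95 on the unloaded and 7.52 on the compressed array, and that of GAPDH 2.15 and 1.80. The median member difference was log2 -0.05, and 3 of 55 members were higher and 3 lower, 5.45% each, where 8.41% of 7703 genes were higher and 7.41% lower. DNAJC11 had the largest difference, 37.2 without and 149 with compression. Without TGF-beta3 it had been 89.1 at day 42, so the unloaded array was the low one. The ER J protein DNAJB11 went from 38.6 to 96.2 and HSPB6 from 422 to 934. HSPB6 was higher with compression than on any other array, the next being 691 with TGF-beta3 at day 21. The summed signal of 4 smooth muscle markers went from 1294 to 1857 over the same pair, and its part in the difference was not tested. Like DNAJC11 and DNAJB11, the 3 lower members were dim: HYOU1 went from 62.6 to 27.5, HSPB2 from 116 to 52.5 and DNAJC5 from 66.6 to 32.7. Among the other HYOU1 probe sets the difference ran from log2 -2.44 to 0.39.

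On their brightest probe sets, the classic stress genes differed by less than the size rule with compression. HSPA1A was 1.28-fold higher, HSPB1 1.20-fold, DNAJB1 1.07-fold and HSPH1 1.75-fold. HSPA5 differed by log2 -0.08, HSPA8 by -0.05 and HSP90AA1 by -0.05. Other probe sets ran from log2 -0.46 to 1.02 for HSPA1A, from -1.16 to 1.68 for HSPH1 and from 0.03 to 1.51 for HSPA5. Those past the size rule were dim, and some were bounds. The second probe sets of HSPB1, DNAJB1 and HSP90AA1 stayed within it, at 0.14, 0.53 and -0.40. The mitochondrial trio HSPA9, HSPD1 and HSPE1 were 1.40-fold, 1.34-fold and 1.53-fold lower, HSP90AB1 was 1.57-fold lower, and 5 of the 6 CCT subunits had negative differences, of log2 -0.43 to -0.08. The spikes were lower by log2 -0.33 on the compressed array. With the arrays centred on them, 5 members were higher and none lower, but the shares of all genes were not counted there.

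**Figure D5:**
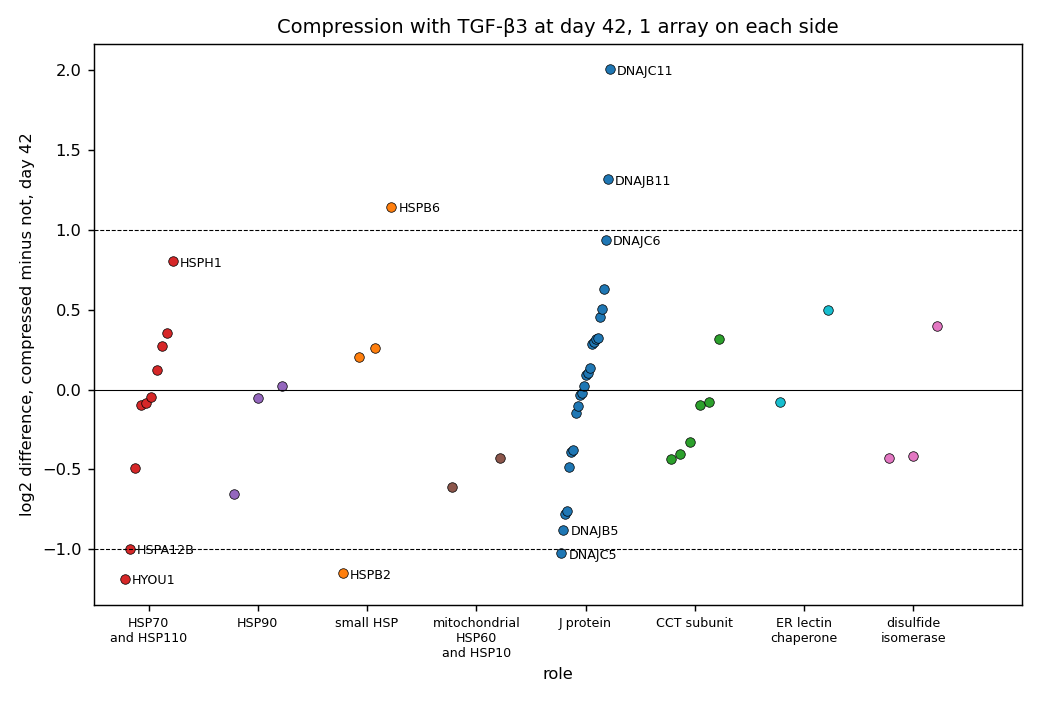
Log2 difference between the compressed and the unloaded array with TGF-beta3 at day 42 (vertical axis) for the 55 members with a value, 1 point per gene, by role, with dashed lines at log2 1 and -1. DNAJC11, DNAJB11 and HSPB6 lie above 1 and HYOU1, HSPB2 and DNAJC5 below -1, while HSPA12B lies just inside the lower line.

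Few members differed between days in the absence of TGF-beta3. From day 3 to day 21, 0 of 54 were at least log2 1 higher and 1 was lower, where 7.03% of 6759 genes were higher and 4.72% lower. The 1 was PDIA3, 2.08-fold lower. HSPA5 was 1.53-fold lower over the same interval, HSPA1A 1.71-fold higher and HSPB1 1.72-fold higher, all within the size rule. The second HSPB1 probe set, nearly as bright, was past it at 2.68-fold higher. From day 21 to day 42 without TGF-beta3, 2 of 53 members were higher, DNAJB2 (2.09-fold), a J protein that passes clients to the proteasome, and DNAJC12 (2.04-fold). A further 2 were lower, HYOU1 (at least 3.30-fold) and PDIA5 (3.06-fold). The background was 3.83% higher and 5.49% lower of 6684 genes. The low day 42 readings of HYOU1 and PDIA5 without TGF-beta3 are the same values that set their large day 42 differences with TGF-beta3, since that array serves both comparisons.

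With TGF-beta3, more members differed between days 21 and 42, on a pair of arrays whose spikes differed by log2 1.19. Of 56 members, 5 were higher and 8 lower, where 19.7% of 7474 genes were higher and 11.1% lower. HSPB2 (at least 7.69-fold), DNAJA4 (2.42-fold), HSPB8 (2.17-fold), DNAJC18 (2.18-fold) and HSPA12B (2.12-fold) were higher. DNAJC27 (at least 4.11-fold), DNAJC13 (3.03-fold), HSPH1 (2.90-fold), CCT6A (2.61-fold) and DNAJC10 (2.32-fold) were the lowest, followed by DNAJC11, HYOU1 and CALR. With the median of its probe sets HYOU1 turned to log2 0.046. Under median centring the split was 1 higher and 13 lower, and with the spikes 1 and 36, so that DNAJC18, HSPB8 and HSPA12B turned to log2 -0.06, -0.07 and -0.10 there. HSPA1A and HSPB1 were 1.88-fold and 1.67-fold higher at day 42 than at day 21, but with the spikes they turned to log2 -0.27 and -0.44. HSPA5 differed by log2 -0.06, and by -1.25 with the spikes. In all, 22 of the 24 positive differences turned negative there. These scalings shift every gene of an array alike, and the shares of all genes under them were not counted.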

How the data were processed

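Total RNA of 6 constructs was amplified with the NuGEN ribo-SPIA method and labelled with biotin, per the labels' protocols. The authors deposited 1 signal intensity for each probe set and array, on a linear scale. The submitters' processing notes name MAS5, without a version. The 112 control probe sets were left out. Of the other 24016, 13292 had 1 gene symbol, 86 several and 10638 none, and only the first were named. All 57 members were found in RefSeq by Entrez identifier under the same symbol. A gene's probe set was picked with values under 15 set to 15. For the comparisons the authors' scaling was kept, values under 15.1, the 40th percentile of all values, were set to it, and log2 was taken. A fold change with 1 side under the floor is a bound, written "at least".

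With 1 array per condition, a gene above the floor on at least 1 array of a pair was compared by size, with a log2 difference of at least 1 counted, and no p-value was computed. For TGF-beta3, limma 3.58.1 in R 4.3.3 used 4 arrays, a term for day and moderated variances with a trend on signal, over the 14839 probe sets that passed the floor on 2 or more of them, with Benjamini-Hochberg adjusted p under 0.05. It had 1 residual degree of freedom against a prior of 49.8, so the p-values rest on a spread pooled over probe sets. With terms for TGF-beta3 and day, that spread is how far the TGF-beta3 difference varied between the days. No replicate arrays entered it, so technical and biological variation within a condition were not measured. "Rose" and "fell" refer to this limma test. The fit was also run on simulated data with independent noise drawn from its own variances. Such data meet the model by design and cannot check the lack of replicates or the scaling of the arrays. Backgrounds count 1 probe set per gene.

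Alternatives were median centring, quantile normalization, centring on 18 spike probe sets, floors at the 25th percentile and at a signal of 100, the median over each gene's probe sets and, for limma, no variance trend, no day term, the compressed array in place of the unloaded one and each array left out. The fits with an array left out had no day term. The members and lists were chosen with earlier results of these data known. Genes named were those past the limma test, the 5 highest and lowest members past the size rule, 18 reference chaperones whatever their values, and the rest of the members after their values were seen. Protein and promoter sequences were not used here. The other steps used pandas 2.3.3 and numpy 2.4.6 under Python 3.11.15, with plots by matplotlib 3.10.9.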

Additional observations from a re-analysis of the deposited data

Results flagged for a closer look

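At least 1.5-fold differences with TGF-beta3 in opposite directions on the 2 days, a criterion set after the values were seen, were found for 4 of 56 members (7.14%), where 4.49% of 6748 genes had them. The difference between the days was not tested, since each day had 1 array on each side. HSPH1 was higher by log2 0.79 at day 21 and lower at day 42 (-1.35). Of its other 3 probe sets, the brighter 2 were lower at day 42 too, by -1.25 and -1.97, and at day 21 they gave 0.32 and -0.46. DNAJC27 was higher by 0.63 at day 21 and lower at day 42 (-1.72, a bound). HSPB2 was lower at day 21 (-0.74, a bound) and higher by at least 2.94 at day 42. DNAJC5 was lower at day 21 (-0.82) and higher by 0.86 at day 42, but its second probe set was higher on both days, by 0.69 and 0.58.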

How the results depend on the processing

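With limma, 1 member rose and 2 fell. The counts were 1 and 3 with the median of probe sets, where HSPA1A was lost and DNAJC12 and DNAJC13 fell, 0 and 2 under median centring, 2 and 2 under quantile normalization, 0 and 1 with the spikes, 3 and 3 with the lower floor (the 25th percentile), 3 and 2 with the higher one (a signal of 100), 0 and 0 without the variance trend and likewise without the day term, and 3 and 3 with the compressed array. With 1 array left out, fits in which the lone array is assumed to vary like the others, between 0 and 4 rose and between 0 and 10 fell, the highest without the day 21 array with TGF-beta3. By size, TGF-beta3 at day 21 had 2 higher and 3 lower members, and 4 higher with the lower floor, 1 higher with the higher one and 8 lower with the spikes. At day 42 it had 8 and 9, but 3 and 18 under median centring, 3 and 35 with the spikes, and 3 higher with the higher floor. There DNAJC14, DNAJC17, HSPA2, DNAJA3 and DNAJC9 turned to log2 -0.033, -0.19, -0.21, -0.23 and -0.32 with the spikes. Compression had 3 and 3, but 5 higher with the median of probe sets, 5 and 0 with the spikes, 6 lower with the lower floor and 1 and 0 with the higher. Day 42 against day 21 with TGF-beta3 had 5 and 8, but 1 and 13 under median centring, 1 and 36 with the spikes and 2 and 4 with the higher floor, and with the spikes DNAJC18, HSPB8 and HSPA12B turned to -0.061, -0.067 and -0.10, and with the median of probe sets HYOU1 turned to 0.046. Day 21 against day 3 without it had 0 and 1, but 1 higher with the median of probe sets, 5 higher with the spikes and 3 lower with the lower floor. Day 42 against day 21 without it had 2 and 2, but 5 higher under median centring, 0 higher with the spikes, 1 lower with the median of probe sets and 1 and 0 with the higher floor. The shares of all genes were not counted under the alternatives. Apart from the scalings, which shift whole arrays, the cause was not tested. No paired analysis was possible because the labels give no replicate numbers and each condition has 1 array. Dim members near the floor have only bounds.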

Other observations

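Of the 57 members, 14 had their highest and 12 their lowest signal on the unloaded day 42 array with TGF-beta3, the array that held the highest signal of 29.3% and the lowest of 15.2% of all genes. The 12 included HSPH1, HSPA4, CCT6A, CALR, DNAJA1 and DNAJC13, and 2 of them were at least log2 1 higher with compression. All of these comparisons share that array. Among genes outside the set, named after their values were seen, BAG3, the exchange factor that works with HSPB8, read 673 with TGF-beta3 at day 21, 143 at day 42 and 342 with compression. The HSP90 co-chaperone CHORDC1 read 122, 19.3 and 91.3 on the same arrays. The second HSPA4 probe set read 304, 121 and 441, and the HSP90 partner PTGES3 went the other way, with 2420.1, 3156 and 2672.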
